A study of Mus musculus with 10 samples.

Results

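Collagen genes encode the chains of the most abundant proteins of the extracellular matrix. The members were the genes of the deposited table whose symbol had the form Col, a type number, the letter a and a chain number, which gave 36 of 20579 genes. They were grouped as 9 fibrillar, 8 basement membrane, 7 FACIT (fibril-associated collagens with interrupted helices) and 12 other collagen genes. A further 9 collagen genes of the class list used here, among them Col2a1, Col14a1 and Col8a1, had no row and were not analysed here.

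RNA was sequenced from cells sorted for green fluorescent protein (GFP) made from the Hopx promoter, out of crypts of mouse intestine at E18.5, late in gestation. There were 5 libraries of p57KO embryos, which lack the cyclin-dependent kinase inhibitor p57, and 5 of p57WT embryos. Both genotypes carried the Hopx reporter and the strain label C57BL6/J / 129S4, and the sources used here give the allele of neither the knockout nor the reporter. Hopx marks slowly cycling cells of the crypt, and its promoter is also active outside the intestine, in heart muscle for example. The column labels add a number whose meaning is not stated: 607 for p57KO 1, p57KO 2 and p57WT 1, 608 for p57KO 3 to p57KO 5, and 740 for p57WT 2 to p57WT 5.

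Collagen chains are joined into trimers inside the cell, cut and cross-linked outside it, and built into different structures. Fibrillar chains make the banded fibrils of connective tissue, FACIT chains sit on the surface of those fibrils, and type IV chains make the network of the basement membrane on which epithelium and smooth muscle rest. In the gut wall, fibroblasts, smooth muscle cells and pericytes are known as the main sources of these chains, and epithelium makes few of them. The question here was whether collagen genes differed between p57KO and p57WT cells, and whether all classes and chains did so alike.

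The targeted gene checked the labels: Cdkn1c, which encodes p57, was at 0.153 to 2.06 CPM (counts scaled by TMM to one library size) in p57KO libraries and 151 to 458 CPM in p57WT libraries. Total counts were 8037887 to 26809231 per library, and ribosomal RNA repeats took 9.47% to 17.0% of the counts in p57KO 5 and in p57WT 1, 3, 4 and 5, and at most 0.435% elsewhere. Hopx, the gene behind the sort, was at 127 to 199 CPM in p57KO libraries and 60.4 to 78.1 CPM in p57WT libraries. The cell type label is that of intestinal stem cells, and all 12 epithelial markers were present, at a summed 6658 to 12713 CPM in p57KO libraries and 2435 to 5450 CPM in p57WT libraries. Smooth muscle markers were present as well: all 10 were lower in p57KO, at a summed 5163 to 36636 CPM in p57KO libraries and 49297 to 109997 CPM in p57WT libraries. The summed level was above that of the epithelial markers in 3 of 5 p57KO libraries and in all 5 p57WT libraries.

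Collagen transcripts were lower in p57KO cells. All collagen genes together took 0.0286%, 0.0421%, 0.187%, 0.113% and 0.244% of the scaled counts in p57KO 1 to 5, against 0.513%, 1.02%, 0.659%, 0.690% and 1.38% in p57WT 1 to 5. The groups did not overlap, and p57KO 1 and p57KO 2 were the lowest libraries. The share averaged 0.123% ± 0.0924 in p57KO and 0.853% ± 0.350 in p57WT (SD, n = 5 each). In sorted bulk RNA, fewer cells of a collagen-making type and less collagen RNA per cell cannot be told apart.

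Of the 36 collagen genes, 28 passed the expression filter and were tested with edgeR's quasi-likelihood test, adjusted over 16710 genes. In p57KO 19 of the 28 were lower (adjusted p below 0.05) and 0 were higher, against 17.2% lower and 19.3% higher over all genes tested. Another 9 did not pass and 8 were not tested. The median log2 fold change of p57KO over p57WT was -2.43 over the 28 collagen genes and 0.08 over all genes tested. In 16 of the 28 every p57KO library was below every p57WT library, against 12.7% of all genes tested, and in 0 of the 28 every p57KO library was higher, against 11.5%. No collagen gene was called higher by DESeq2 or limma voom either. At an unadjusted p below 0.05, 0 collagen genes were higher in edgeR and in limma voom and 2 in DESeq2, Col25a1 and Col6a5, named here after their values were seen. In the authors' deposited table, of the 36 collagen genes 20 had an adjusted p below 0.05 and a negative fold change, against 17% of its rows, and 0 a positive one, against 20.5%. The 19 genes called lower by edgeR were among those 20.

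Collagen genes of high and low level were called at different rates. All 16 collagen genes that averaged 10 CPM or more over both genotypes were lower in p57KO without overlap of the libraries. Their log2 fold changes ran from -3.40 to -2.04, whereas 16.3% of the 10684 genes at that level were lower. Col9a2, Col15a1 and Col16a1 reached 10 CPM only in p57WT, and averaged 4.48, 8.11 and 7.10 CPM in p57KO. Their place among the 16 thus depends on the group where they are high. Of the 12 collagen genes below 10 CPM, 3 were called lower, against 17.2% of all genes tested at any level. In 0 of the 12 were the libraries apart, against 12.7% of all genes tested apart and lower and 11.5% apart and higher. By class, 6 of 8 tested fibrillar genes, 4 of 7 basement membrane genes, 4 of 4 FACIT genes and 5 of 9 other genes were lower, with median log2 fold changes of -2.75, -1.77, -2.72 and -2.03. Those 4 tested FACIT genes passed a filter on low counts, which a gene can pass through 1 genotype, and 3 further FACIT genes did not. Col9a1 averaged 0.495 CPM in p57KO and 2.50 CPM in p57WT, and Col13a1 0.784 CPM in p57KO and 3.20 CPM in p57WT. Their place among the tested genes thus depends largely on p57WT, where they are high.

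**Figure D1:**
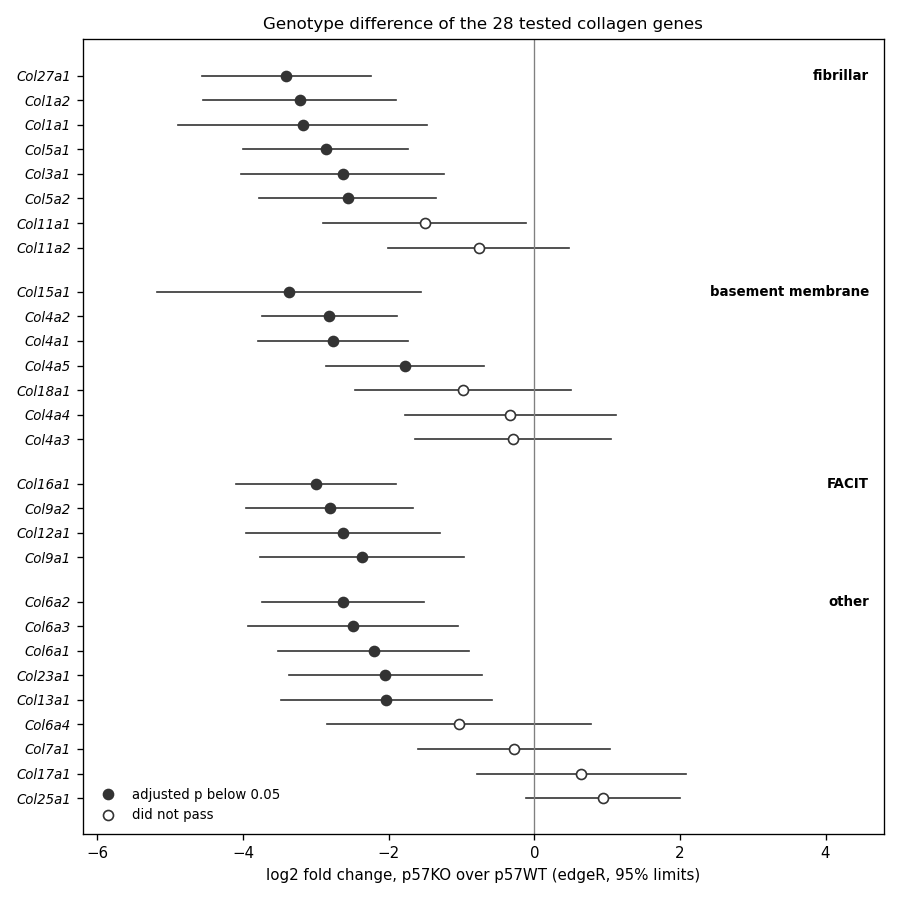
Log2 fold change of p57KO over p57WT for the 28 tested collagen genes, by class, from edgeR, with 95% limits as lines. Filled points, 19 in all, have an adjusted p below 0.05 and lie left of zero; the 9 open points did not pass.

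Among the fibrillar genes, Col3a1 encodes the chain of type III collagen, which is found with type I in distensible organs such as the gut. Per library it stood at 44.5, 78.1, 575, 369 and 513 CPM in p57KO 1 to 5, against 1031, 2821, 1357, 1388 and 3195 CPM in p57WT 1 to 5. The groups did not overlap, and both p57KO libraries of number 607 were far below the 3 of number 608. Col3a1 was 6.20-fold lower in p57KO, a log2 fold change of -2.63 (SE 0.65, edgeR adjusted p = 0.00793).

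Col1a1 and Col1a2 encode the chains of type I collagen, the main protein of tendon, bone and most connective tissue. Col1a2 stood at 21.8, 41.6, 164, 102 and 191 CPM in p57KO 1 to 5, against 473, 873, 635, 675 and 2198 CPM in p57WT 1 to 5. Its highest p57KO library was below its lowest p57WT library, and p57WT 5 stood far above the other p57WT libraries. The gene was 9.33-fold lower in p57KO (log2 fold change -3.22, SE 0.61, edgeR adjusted p = 0.00204). Col1a1 stood at 19.4, 10.4, 191, 91.1 and 338 CPM in p57KO, against 671, 1158, 843, 913 and 2300.3 CPM in p57WT. The spread within p57KO was wider for Col1a1 than for Col1a2, with p57KO 2 lowest and p57KO 5 highest. Col1a1 was 9.05-fold lower, at -3.18 on the log2 scale (SE 0.79; edgeR adjusted p = 0.00836), with -3.89 once p57KO 5 was left out.

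Type V collagen is a minor fibrillar type that is known to start and limit the growth of type I fibrils. Col5a1 was at 22.4, 40.1, 102, 61.5 and 198 CPM in p57KO 1 to 5, against 431, 596, 508, 503 and 1049 CPM in p57WT 1 to 5. The groups were apart, and p57WT 5 was the highest p57WT library by a wide margin. Col5a1 was lower by a log2 fold change of -2.87 (SE 0.52, edgeR adjusted p = 0.00164). Its partner Col5a2, which lies beside Col3a1 on chromosome 1, was lower by -2.56 (adjusted p = 0.00446). Col27a1, a fibrillar chain known from cartilage and developing organs, had the most negative log2 fold change of the 28, -3.40 (SE 0.54, adjusted p = 0.000828), with means of 43.6 ± 36.3 CPM in p57KO and 461 ± 112 CPM in p57WT (SD, n = 5 each). Col11a1 and Col11a2, the type XI chains best known from cartilage, averaged at most 3.29 CPM in either group and did not pass, at -1.50 (adjusted p = 0.0829) and -0.76 (adjusted p = 0.311).

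**Figure D2:**
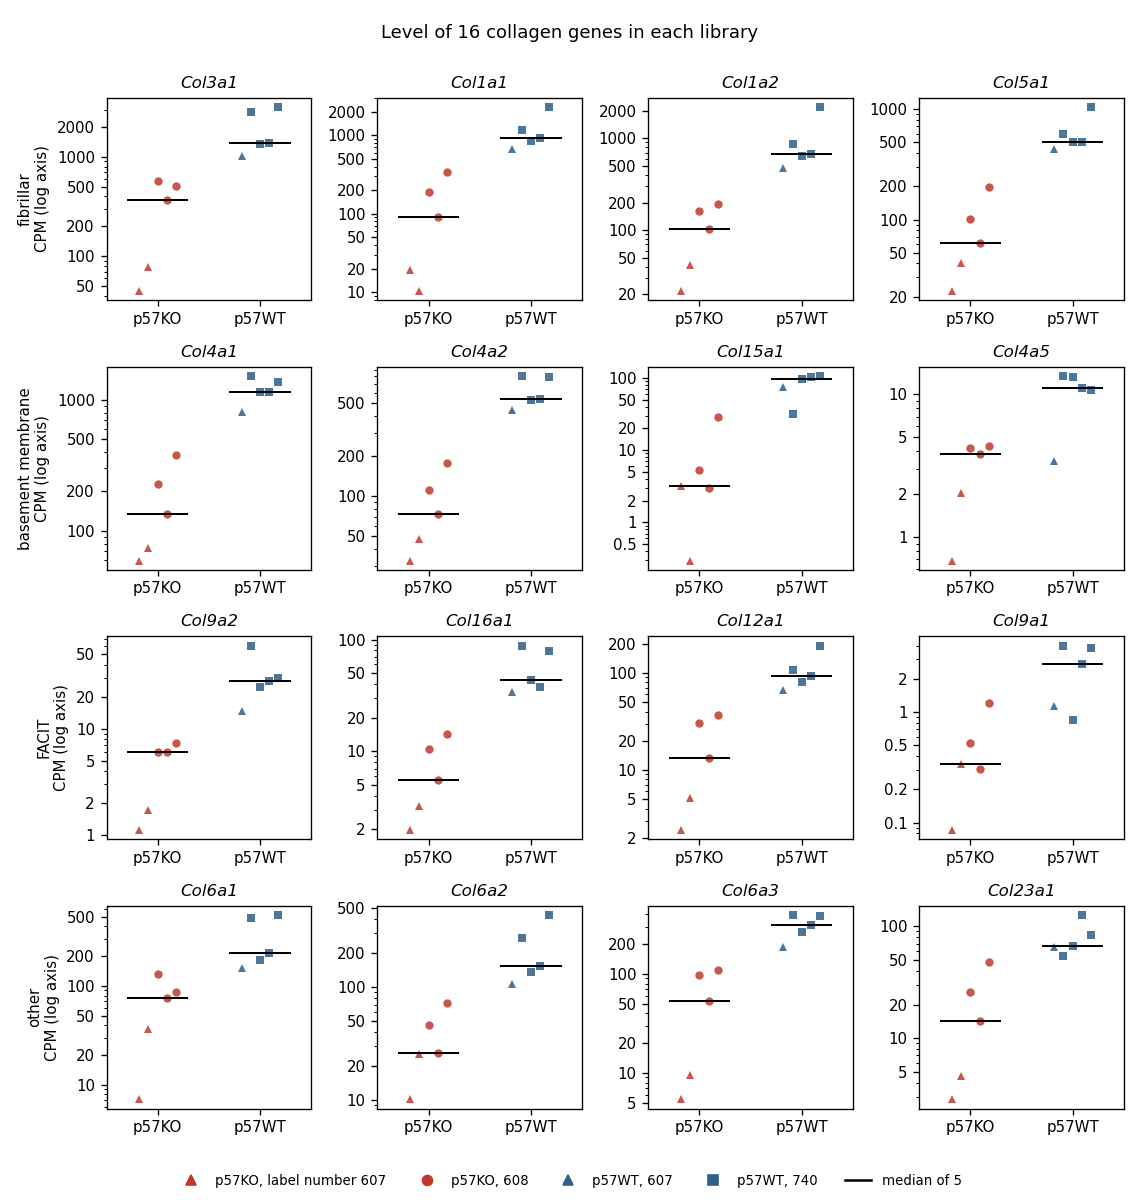
Level of 16 collagen genes in CPM, on a log axis, in each of the 5 p57KO and 5 p57WT libraries; rows are classes, each with its 4 members of highest mean count per kb of exon. Symbols give the label number and lines the median of 5; Col4a5 and Col9a1 are the 2 genes whose groups overlap.

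The basement membrane class turns on Col4a1 and Col4a2, whose chains make the type IV network found in every basement membrane. Col4a1 was at 59.4, 74.6, 227, 134 and 382 CPM in p57KO 1 to 5, against 814, 1514, 1140.0, 1142 and 1369 CPM in p57WT 1 to 5. Col4a2 was at 32.8, 47.8, 112, 73.6 and 179 CPM in p57KO, against 449, 802, 535, 542 and 796 CPM in p57WT. Both genes ranked the 5 p57KO libraries in the same order, with p57KO 1 lowest and p57KO 5 highest, and in both the groups were well apart. They were lower to nearly the same degree, Col4a1 by a log2 fold change of -2.77 (SE 0.48, edgeR adjusted p = 0.00126) and Col4a2 by -2.81 (SE 0.43, adjusted p = 0.000699).

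The remaining type IV genes were much lower in level. Col4a5, which encodes a chain of the kidney-type and smooth muscle networks, was at 0.688, 2.03, 4.20, 3.84 and 4.35 CPM in p57KO 1 to 5, against 3.41, 13.4, 13.2, 11.1 and 10.7 CPM in p57WT 1 to 5. Here the groups overlapped because p57WT 1 lay below the 3 p57KO libraries of number 608. Col4a5 was lower by -1.77 (SE 0.50, edgeR adjusted p = 0.0157). Col4a3 and Col4a4, which form a network with Col4a5 in kidney and other organs, averaged at most 1.76 CPM in either group and had log2 fold changes of -0.29 and -0.33, neither of which passed. Col4a6 was not tested.

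Among basement membrane collagens outside type IV, Col15a1 and Col18a1 encode the chains of types XV and XVIII, related proteins that carry sugar chains and release endostatin-like fragments. Col15a1 was at 3.18, 0.296, 5.32, 2.95 and 28.8 CPM in p57KO 1 to 5, against 76.1, 32.0, 96.0, 104 and 106 CPM in p57WT 1 to 5. The groups were apart, with p57KO 5 above the other p57KO libraries and p57WT 2 below the other p57WT libraries. Its log2 fold change was -3.37 (SE 0.84, edgeR adjusted p = 0.00833), and -4.79 without p57KO 5. Col18a1 averaged 3.70 ± 1.74 CPM in p57KO and 7.28 ± 7.99 CPM in p57WT (SD, n = 5 each) and did not pass (log2 fold change -0.98, adjusted p = 0.278).

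The type IV genes lie in head-to-head pairs that share one promoter region: Col4a1 (chr8:11198423-11312826, minus strand) with Col4a2 (chr8:11312805-11449287, plus strand), Col4a3 (chr1:82586921-82722059) with Col4a4 (chr1:82448423-82586849), and Col4a5 (chrX:141475385-141689234) with Col4a6 (chrX:141165403-141474076), in GRCm38 coordinates of GENCODE M21. The first exons of Col4a1 and Col4a2 overlap by 22 bases. In the first pair both genes were called lower in p57KO, and in the second neither was. The promoter windows of Col4a1 and Col4a2 are shown because these neighbours moved together. Those of Col1a2 and Col3a1 are shown because they carry much of the fibrillar difference, as does Col1a1, for which no window was found. All windows are from RefSeq (GRCm38.p6). Each runs from 250 bases before to 50 bases after the RefSeq start site, 5′ to 3′ on the strand of the gene, and capitals mark CCAAT, its reverse complement ATTGG, or TATAAA.
Col4a1, chr8:11312777-11313076, minus strand: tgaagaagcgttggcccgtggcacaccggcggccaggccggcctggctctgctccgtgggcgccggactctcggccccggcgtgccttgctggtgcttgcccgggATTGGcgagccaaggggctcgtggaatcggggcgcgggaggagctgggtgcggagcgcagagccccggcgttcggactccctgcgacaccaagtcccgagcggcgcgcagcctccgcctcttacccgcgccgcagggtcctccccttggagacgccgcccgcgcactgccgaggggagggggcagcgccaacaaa
Col4a2, chr8:11312555-11312854, plus strand: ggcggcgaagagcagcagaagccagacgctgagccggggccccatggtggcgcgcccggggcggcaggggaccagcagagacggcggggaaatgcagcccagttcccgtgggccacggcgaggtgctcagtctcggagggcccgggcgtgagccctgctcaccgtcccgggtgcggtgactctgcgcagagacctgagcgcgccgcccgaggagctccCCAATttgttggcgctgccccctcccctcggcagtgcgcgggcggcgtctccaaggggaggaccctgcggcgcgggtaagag
Col1a2, chr6:4505368-4505667, plus strand: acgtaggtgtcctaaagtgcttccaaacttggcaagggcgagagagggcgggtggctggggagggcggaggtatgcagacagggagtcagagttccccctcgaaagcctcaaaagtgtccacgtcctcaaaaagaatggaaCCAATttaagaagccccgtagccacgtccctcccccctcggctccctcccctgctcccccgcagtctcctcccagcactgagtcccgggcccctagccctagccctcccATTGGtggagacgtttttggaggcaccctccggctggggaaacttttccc
Col3a1, chr1:45311288-45311587, plus strand: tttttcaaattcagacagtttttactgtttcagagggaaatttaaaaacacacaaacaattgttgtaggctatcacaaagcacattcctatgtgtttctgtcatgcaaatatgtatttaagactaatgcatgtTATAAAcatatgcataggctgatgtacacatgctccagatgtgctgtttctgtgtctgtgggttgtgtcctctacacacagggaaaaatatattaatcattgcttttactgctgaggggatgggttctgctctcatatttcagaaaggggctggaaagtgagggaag
The Col4a1 and Col4a2 windows share 78 bases, which are read on opposite strands. The first base of the capitals lies 145 bases upstream of the start site in Col4a1, 32 bases upstream in Col4a2 and 117 bases upstream in Col3a1, and in Col1a2 a first CCAAT lies 109 bases upstream and a second begins at the start site. Windows were found for 29 of the 36 collagen genes. Of these genes 12 held CCAAT on either strand in any of their windows, 4 held TATAAA and 18 held GGGCGG. Of 32851 single RefSeq windows 37.4%, 13.6% and 35.7% held them. A gene with several windows has several chances, so counts per gene and shares per window are not like measures. Among the 16 collagen genes with a window that were called lower, 6 held CCAAT, 2 held TATAAA and 10 held GGGCGG in any window. These letter matches describe the windows and say nothing of binding.

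FACIT chains carry short collagenous stretches and bind to fibrils. Col9a2, a chain of type IX collagen best known from cartilage, was at 1.12, 1.74, 6.02, 6.10 and 7.40 CPM in p57KO 1 to 5, against 14.7, 60.4, 24.4, 27.997 and 29.6 CPM in p57WT 1 to 5. The groups were apart, and p57WT 2 was the highest library. Col9a2 was 7.02-fold lower in p57KO (log2 fold change -2.81, SE 0.53, edgeR adjusted p = 0.00197). Col9a1, another type IX chain, was at 0.0860, 0.339, 0.525, 0.307 and 1.219 CPM in p57KO, against 1.14, 3.99, 0.847, 2.75 and 3.79 CPM in p57WT. It rested on 46 counts in p57KO and 171 in p57WT, its groups overlapped, and it was lower by -2.37 (SE 0.65, adjusted p = 0.0134).

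Col12a1, the chain of type XII collagen of tendon, smooth muscle and other tissues under load, was at 2.41, 5.08, 30.2, 13.2 and 36.6 CPM in p57KO 1 to 5, against 66.8, 107, 81.2, 93.4 and 191 CPM in p57WT 1 to 5. Col16a1, the chain of type XVI collagen, was at 1.98, 3.26, 10.4, 5.56 and 14.3 CPM in p57KO, against 33.9, 88.3, 43.1, 37.8 and 79.1 CPM in p57WT. Neither gene's groups overlapped, and in both the 607 libraries were the lowest of p57KO. Col12a1 was lower by a log2 fold change of -2.62 (SE 0.62, edgeR adjusted p = 0.00623) and Col16a1 by -2.99 (SE 0.51, adjusted p = 0.00118).

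In the class of other collagens, type VI chains make beaded filaments beside basement membranes. Col6a1 was at 7.14, 36.4, 131, 75.4 and 87.7 CPM in p57KO 1 to 5, against 153, 482, 184, 218 and 522 CPM in p57WT 1 to 5. Col6a2 was at 10.1, 25.2, 46.1, 26.0 and 71.8 CPM in p57KO, against 107, 273, 136, 153 and 437 CPM in p57WT. Col6a3, whose chain ends in the fragment endotrophin, was at 5.42, 9.53, 96.6, 53.5 and 109.8 CPM in p57KO, against 188, 394, 266, 314 and 382 CPM in p57WT. All 3 were apart between the groups, and p57KO 1 was the lowest library for each. Their log2 fold changes were -2.21 for Col6a1 (SE 0.61, edgeR adjusted p = 0.0135), -2.63 for Col6a2 (SE 0.52, adjusted p = 0.00247) and -2.49 for Col6a3 (SE 0.67, adjusted p = 0.0121).

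Of 4 tested transmembrane collagens, which span the cell membrane, 2 were called lower and 2 did not pass. Col23a1 was at 2.84, 4.62, 25.9, 14.4 and 48.5 CPM in p57KO 1 to 5, against 65.6, 54.7, 66.2, 126 and 83.7 CPM in p57WT 1 to 5. The groups were apart by a small gap between p57KO 5 and p57WT 2. Col23a1 was lower by -2.04 (SE 0.61, edgeR adjusted p = 0.0203), by -2.70 without p57KO 5, and did not pass without p57WT 4 (adjusted p = 0.0530). Col13a1 averaged 0.784 ± 0.643 CPM in p57KO and 3.20 ± 2.38 CPM in p57WT (SD, n = 5 each) and was lower by -2.03 (adjusted p = 0.0312), a call lost without any one of p57KO 2, p57KO 3, p57KO 4, p57WT 2 and p57WT 5 (adjusted p between 0.05003 and 0.108). Col17a1, the hemidesmosome collagen of epithelium, averaged 1.79 ± 0.944 CPM in p57KO and 1.16 ± 0.744 CPM in p57WT, and Col25a1, known from neurons, 3.11 ± 1.03 CPM in p57KO and 1.62 ± 0.955 CPM in p57WT. Those 2 had the only positive log2 fold changes of the 28, 0.65 (adjusted p = 0.465) and 0.95 (adjusted p = 0.143), and neither passed in edgeR. Col7a1, the anchoring fibril chain made by epithelium of the skin, was at -0.28 (adjusted p = 0.742).

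The 9 genes that did not pass had log2 fold changes from -1.50 to 0.95, with 95% limits reaching from -2.90 to 2.08, and averaged at most 7.28 CPM in either group. The 8 genes removed by the filter, Col24a1, Col4a6, Col20a1, Col9a3, Col22a1, Col26a1, Col28a1 and Col6a5, were at 0 to 4.39 CPM per library, with 10 to 121 counts per genotype. The limit that a count of 0 allows, 3 counts, was worth 0.105 to 0.393 CPM in these libraries, for counting error only.

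Per kb of exon, the 7 collagen genes of highest level were the same in both genotypes, in a different order. Col3a1 was highest, at 32.2 CPM per kb in p57KO and 200 CPM per kb in p57WT, followed by Col4a1 at 23.5, Col1a1 at 19.8 and Col6a1 at 15.4 CPM per kb in p57KO, and by Col1a1 at 179, Col4a1 at 160.2 and Col4a2 at 94.4 CPM per kb in p57WT. Type I chains made up 13.3%, 9.17%, 18.49%, 16.03% and 22.2% of the collagen level per kb in p57KO 1 to 5, against 22.5%, 19.9%, 22.5%, 23.0% and 32.0% in p57WT 1 to 5. Only p57KO 5 reached into the p57WT range. Type IV chains averaged 28.1% ± 7.502 in p57KO and 26.2% ± 4.45 in p57WT, type VI chains 16.5% ± 5.20 in p57KO and 11.6% ± 1.71 in p57WT, and type V chains 9.94% ± 1.05 in p57KO and 9.99% ± 1.02 in p57WT (SD, n = 5 each). These shares were not tested, and all overlapped between the groups.

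Chains that are built into the same trimer, or into the same fibril, were compared as ratios of counts within a library, which do not depend on the scaling. None of 9 such ratios passed in an exact two-sided permutation test of the genotypes over the 10 libraries, whose smallest possible p is 0.00794 (adjusted p over the 9 ratios between 0.393 and 0.929). A lone ratio could not reach an adjusted p below 0.05 here, even with its groups fully apart. The test therefore cannot show that chains moved alike. Col1a1 over Col1a2 was 0.890, 0.250, 1.17, 0.891 and 1.77 in p57KO 1 to 5, against 1.42, 1.33, 1.33, 1.35 and 1.05 in p57WT 1 to 5. The p57KO libraries scattered on both sides of the p57WT libraries, of which 4 agreed closely (difference of mean log2 ratios -0.62, exact permutation p = 0.206). Col4a1 over Col4a2 spread least, between 1.56 and 2.14 in p57KO and between 1.72 and 2.13 in p57WT (difference -0.05, exact permutation p = 0.651). Col3a1 over Col1a1 was 2.29, 7.52, 3.01, 4.05 and 1.51 in p57KO, against 1.54, 2.44, 1.61, 1.52 and 1.39 in p57WT (difference 0.93, exact permutation p = 0.0714, adjusted p = 0.393), with p57KO 1 and p57KO 5 among the p57WT values.

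**Figure D3:**
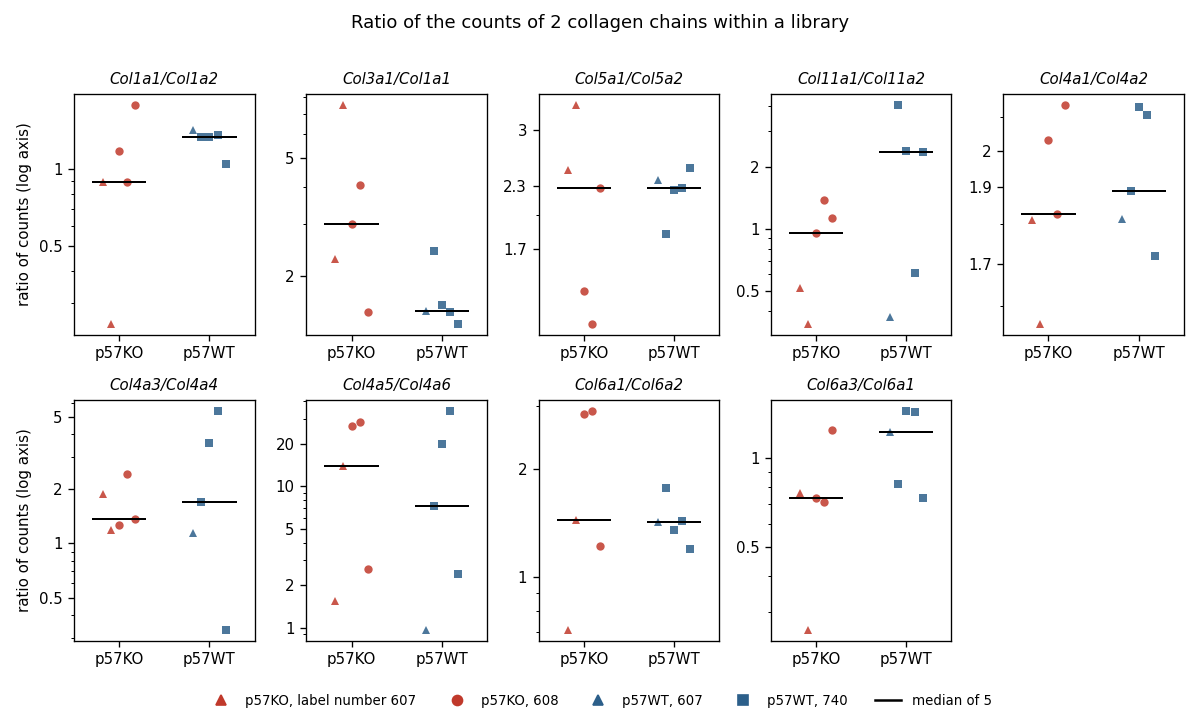
Ratio of the counts of 2 collagen chains within a library, on log axes, for the 9 pairs compared, in 5 p57KO and 5 p57WT libraries. The groups overlap in every panel, and Col4a1/Col4a2 has the narrowest range, 1.56 to 2.14 in p57KO and 1.72 to 2.13 in p57WT.

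The p57KO libraries differed by label number as well. Only number 607 holds both genotypes, with 2 p57KO and 1 p57WT libraries, and within it 14 of the 28 collagen genes were lower in p57KO and 0 higher, against 4.94% lower and 1.1% higher over all genes (edgeR contrast after fitting each genotype and number as its own group, with the lone p57WT library assumed to vary like the rest). At an unadjusted p below 0.05, 17 were lower and 0 higher in that contrast. All 10 smooth muscle markers were lower in it too, with a median of -3.16. The median within 607 was -3.09 over the collagen genes and 0.15 over all genes, and Col1a1, Col1a2, Col3a1, Col4a1 and Col4a2 were at -5.50, -3.90, -4.07, -3.60 and -3.48. Col4a5, Col9a1, Col6a1, Col6a2 and Col13a1 no longer passed, at -1.28, -2.26, -2.80, -2.60 and -2.84 (adjusted p = 0.272, 0.287, 0.0603, 0.0589 and 0.175).

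Within p57KO, the 607 libraries were below the 608 libraries. Of the 28 genes 12 were lower in 607 and 0 higher (edgeR, against 3.67% lower and 3.01% higher over all genes). Their median was -1.93, against 0.03 over all genes. In 15 of the 16 genes that averaged 10 CPM or more, all but Col15a1, both 607 libraries were below all 3 of 608. The share of all genes with that order was not counted, and the 16 genes were measured in the same libraries. Col1a1 was lower by -3.80 (adjusted p = 0.00893) and Col6a3 by -3.52 (adjusted p = 0.00231). Markers of other cell types moved with this difference. Smooth muscle markers summed to 5163 and 8544 CPM in the 607 libraries and 23502 to 36636 CPM in the 608 libraries, with Myh11 at -2.54 (adjusted p = 0.00944), and the pericyte marker Rgs5 was at -2.75 (adjusted p = 0.00231). Leukocyte markers summed to 1135 and 8691 CPM in 607 and 208 to 1047 CPM in 608, with S100a8, a neutrophil gene, at 6.79 (adjusted p = 0.0156). The part of these cells in the difference between label numbers was not tested. Within p57WT the median of 607 over 740 was -0.69 over the 28 genes and -0.07 over all genes. Of the 28 values 23 were negative, against 55.8% of all genes. Number 607 is 1 library in p57WT, so these values cannot show whether the numbers differ there. Leaving out p57KO 1 and p57KO 2 leaves only number 608 in p57KO, which no p57WT library carries. Genotype and number cannot be told apart in that fit, where 18 of 32 tested collagen genes were called lower, against 19.1% of all genes. These were the 19 genes called on all libraries without Col13a1, and the log2 fold changes of the 19 ran from -2.81 to -1.27. Ribosomal RNA content also moved with genotype. With a term for it 16 of the 28 tested collagen genes were lower, against 10.5% of all genes. Col4a5, Col13a1 and Col23a1 dropped out of the 19 (edgeR adjusted p = 0.0573, 0.122 and 0.0920). The 19 were picked on the same libraries, so a kept call is no independent evidence.

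Markers of cells that make collagen were lower in p57KO as well. The smooth muscle markers had a median log2 fold change of -2.16, with Myh11, the smooth muscle myosin heavy chain, at -2.69 (adjusted p = 0.00392) and Actg2, the enteric smooth muscle actin, at -1.50 (adjusted p = 0.0467). All 5 pericyte markers were lower, at a summed 70.4 to 299 CPM in p57KO and 709 to 1165 CPM in p57WT, with Rgs5 at -2.56 (adjusted p = 0.00374). Of 10 listed fibroblast markers other than Col1a2, 4 had a row and 3 were tested. Of those 3 tested 2 were lower, Mfap4 at -1.91 and Foxf1 at -1.50 (edgeR adjusted p = 0.0176 and 0.0119), and Fbln1 was at -0.52 (adjusted p = 0.326). The 4 with a row summed to 60.0 to 190.5 CPM in p57KO and 216 to 482 CPM in p57WT. Of the epithelial markers 11 of 12 were higher in p57KO, Epcam by 1.37 (adjusted p = 0.00631). The 7 endothelial markers with a row summed to at most 24.8 CPM per library, and 0 of the 3 tested passed.

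The collagen counts were also set against the marker counts of the same library. Per 100 smooth muscle marker counts there were 5.55, 4.93, 5.10, 3.94 and 10.4 collagen counts in p57KO 1 to 5, against 10.4, 9.24, 10.5, 10.5 and 23.2 in p57WT 1 to 5. The groups overlapped through p57KO 5 and p57WT 2 (mean log2 difference -1.09). Of the 16 genes with values per library, 15 had a negative difference on this scale and 0 were apart. The share of all genes with either pattern was not counted. Per 100 pericyte marker counts the values were 407, 277, 871, 578 and 814 in p57KO, against 724, 942, 566, 707 and 1279 in p57WT (mean log2 difference -0.58), with overlap again. Per 100 fibroblast marker counts they were 477, 394, 1074, 892 and 1278 in p57KO, against 2369.8, 2209, 2780.4, 2701 and 2870.2 in p57WT. Here the groups stayed apart (mean log2 difference -1.79), as they did for 11 of the 16 genes. The share of all genes apart on this scale was not counted, and the fibroblast list rested on 4 genes, mostly Fbln1, Mfap4 and Foxf1. The part of these cell types in the collagen difference was not tested.

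**Figure D4:**
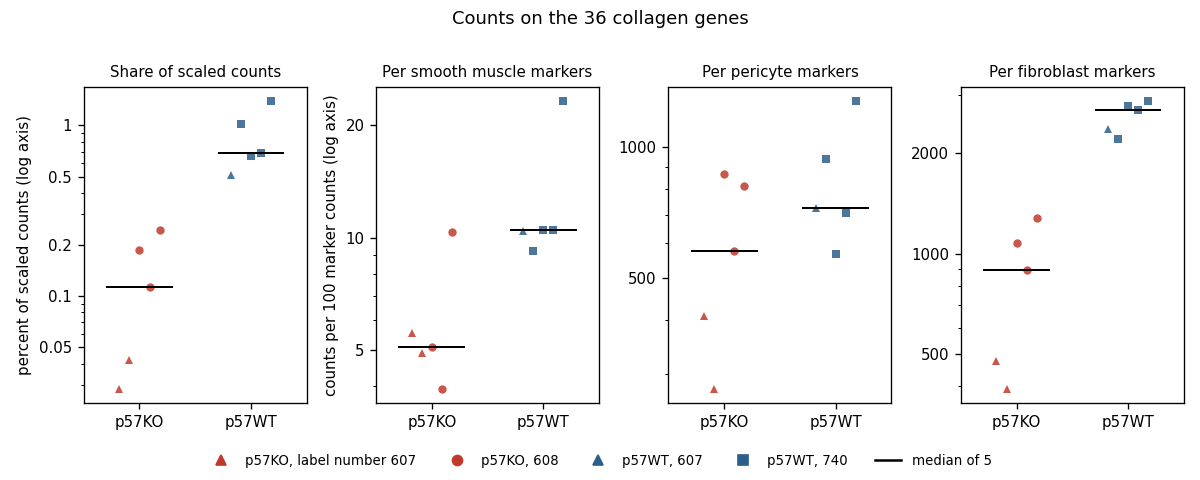
Counts on the 36 collagen genes in each of 5 p57KO and 5 p57WT libraries, on log axes: as percent of the scaled counts, and per 100 counts on smooth muscle, pericyte and fibroblast markers of the same library. The groups are apart for the share and for the fibroblast markers and overlap for the smooth muscle and pericyte markers.

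Of 20 tested genes for the modification, folding and export of collagen chains, 8 were lower and 2 higher in p57KO, against 17.2% lower and 19.3% higher over all genes tested (median log2 fold change -0.95 in the list and 0.08 over all genes). P3h1, of the prolyl 3-hydroxylase family, was at 2.06 to 16.02 CPM in p57KO and 26.6 to 92.2 CPM in p57WT, a log2 fold change of -2.91 (edgeR adjusted p = 0.00226), or -3.64 without p57KO 5. P3h3, of the same family, was at 0.602 to 4.44 CPM in p57KO and 11.7 to 38.3 CPM in p57WT, a log2 fold change of -2.81 (edgeR adjusted p = 0.00139). For neither gene did the groups overlap. Fkbp10, a prolyl isomerase that helps procollagen fold, was lower by -2.48 (adjusted p = 0.00280) and P4ha3, a catalytic subunit of prolyl 4-hydroxylase, by -2.37 (adjusted p = 0.00319). The other way, P4hb, the shared subunit of prolyl 4-hydroxylase and a general protein disulfide isomerase, was higher, at 457 to 1073 CPM in p57KO and 296 to 419.8 CPM in p57WT, by 1.202 (adjusted p = 0.00524). Ppib, the general isomerase cyclophilin B, was higher by 0.68 (adjusted p = 0.0412), a call lost on leaving out any one library other than p57KO 1 (adjusted p up to 0.0932). With libraries scaled to epithelial markers, P4hb and Ppib were at -0.10 and -0.57.

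Of 9 tested genes for the cutting of propeptides and for cross-links, 8 were lower and 0 higher in p57KO, against the same 17.2% and 19.3% over all genes (median -2.25). The list held 13 genes, of which Tll1, Tll2 and Loxl1 had no row. Bmp1, the procollagen C-proteinase, was at 6.79 to 22.4 CPM in p57KO and 36.2 to 104 CPM in p57WT and was lower by -2.06 (edgeR adjusted p = 0.00198). Loxl2, a cross-linking oxidase, was lower by -2.67 (adjusted p = 0.00257), Adamts2, the N-proteinase, by -2.93 (adjusted p = 0.00373) and Pcolce, an enhancer of Bmp1, by -2.77 (adjusted p = 0.00581). In all 4 the groups were apart, and without p57WT 5 Adamts2 and Pcolce were at -2.15 and -1.71. Of 10 listed small leucine-rich proteoglycans, which coat fibrils, 7 had a row and 5 were tested, and Dcn, Bgn and Kera had no row. All 5 tested were lower, against 17.2% of all genes (median -2.10). Prelp was lower by -2.68, Ogn by -3.07, Aspn by -2.10 and Lum by -2.08 (edgeR adjusted p = 0.000482, 0.00120, 0.00453 and 0.0170). Aspn was at -1.50 without p57WT 5.

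Of 7 tested collagen receptors and uptake receptors, 5 were lower and 2 higher in p57KO, against 17.2% lower and 19.3% higher over all genes (median -1.31). Itga1 and Itgb1 encode the α1β1 integrin that binds type IV collagen. Itga1 was at 53.5 to 267 CPM in p57KO and 691 to 949 CPM in p57WT, a log2 fold change of -2.65 (edgeR adjusted p = 0.000866), and Itgb1 was lower by -1.18 (adjusted p = 0.00792). The discoidin domain receptors, which are tyrosine kinases that bind collagen, were lower by -1.31 for Ddr1 and -2.11 for Ddr2 (adjusted p = 0.00381 and 0.00668). Itga2, the α2 integrin chain of epithelium and platelets, was higher by 0.87 (adjusted p = 0.0365), a call lost without any one of p57KO 1, p57WT 2, p57WT 4 and p57WT 5, and was at -0.45 under scaling to epithelial markers. Lair1, an inhibitory collagen receptor of leukocytes, was at 0.870 to 3.73 CPM in p57KO and 0 to 1.07 CPM in p57WT, a log2 fold change of 3.16 (adjusted p = 0.0255) that rested on 249 and 11 counts. The place of Lair1 among the tested genes depends on p57KO, where it is high. Its call was lost without any one of p57KO 2, p57KO 3, p57WT 1, p57WT 3 and p57WT 4, and its value was 5.36 without p57WT 5. All 8 leukocyte markers with a row were higher in p57KO as well, at a summed 208 to 8691 CPM in p57KO and 27.95 to 155 CPM in p57WT, and their part in the Lair1 difference was not tested. Within label number 607, 4 modification genes, 1 propeptide and cross-link gene, 2 receptors and 2 proteoglycans were lower and 0 of any list higher, against 4.94% lower and 1.1% higher over all genes.

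**Figure D5:**
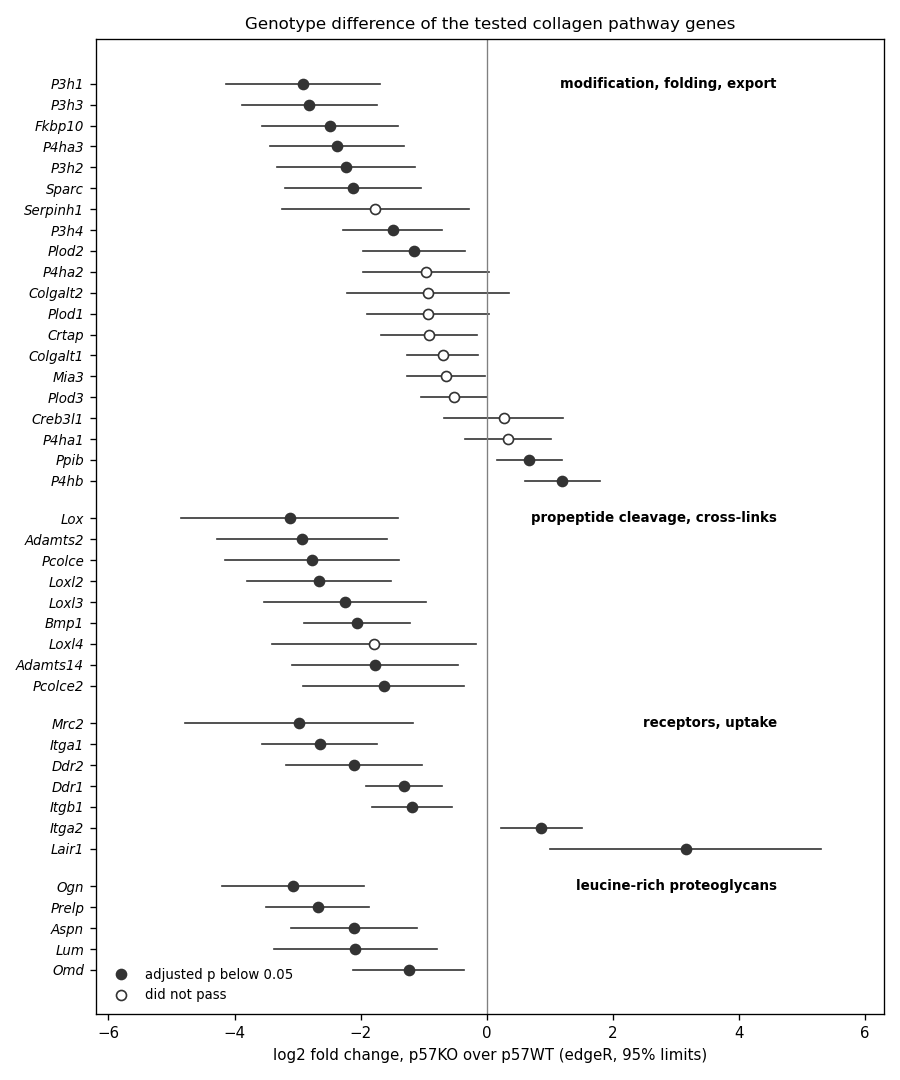
Log2 fold change of p57KO over p57WT, with 95% limits as lines, for the tested genes of 4 collagen pathway lists, from edgeR. Filled points have an adjusted p below 0.05; P4hb, Ppib, Itga2 and Lair1 are the 4 filled points right of zero.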

How the data were processed

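Raw gene counts of 10 libraries, as whole numbers with no normalization, came from the deposited table, per the file headers. The authors also deposited a signal value per library, the count divided by a size factor, and their own comparison of the genotypes: log2 fold changes with standard errors, and a score for the Wald test, its p-value and the value adjusted for multiple tests. The submitters' processing notes name STAR 2.6.1d, HTSeq 1.0 and DESeq2 1.22.2 among other tools, with mm10 (GRCm38). The strand setting is not given in the sources used here, and reads of overlapping antisense genes cannot be told apart. The largest exon overlaps of collagen genes were 6.07% of the exonic length in Col9a3 and 5.65% in Col4a3.

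The counts were fitted with edgeR 4.0.16 in R 4.3.3: TMM scaling, the tool's expression filter, which left 16710 of 20579 genes, genotype as the term and Benjamini-Hochberg adjustment over all genes tested, with a threshold of 0.05. Standard errors came from the log2 fold change and its F value. Alternatives used limma 3.58.1 (voom) and DESeq2 1.42.0. CPM values were TMM-scaled, and levels per kb used exon unions of GENCODE M21. Ratios of chains used counts plus 0.5, for pairs whose genes both averaged at least 1 CPM. On counts simulated from these libraries for 16710 genes, the fit called 71% of genes changed 4-fold, 8% of genes changed 2-fold and 0.0367% of unchanged genes. The simulation gave all genes a common spread, held no difference between label numbers and changed only 200 genes. Its rates may therefore not hold for the real counts.

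Values per library are given for Cdkn1c, Col1a2 and the 4 members of each class with the highest mean count per kb. From each pathway list up to 4 genes with the smallest p are named, and every called gene of opposite sign. Other genes with values are named because a call or position turned on them. The members, gene lists and rules were chosen with earlier results of these data known, so the pathway and marker lists are no independent evidence of a direction. The design text speaks of 5 intestines per genotype, without animal identifiers. P-values measure the spread between these libraries, which may be partly technical. No 2 libraries of a genotype agreed within sampling noise: the chi-square over genes, per degree of freedom, was at least 46.9 for p57KO pairs and 9.50 for p57WT pairs.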

Additional observations from a re-analysis of the deposited data

Results flagged for a closer look

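Values of 52 groups of 5 libraries were checked for a single library far from the other 4, by the gap to its nearest neighbour over the range of the group. Chance flags about 1 in 20 such groups if values are normal and groups independent, and 7 were found. The 52 groups share libraries and many hold untransformed levels, so the 7 cannot be set against that rate.

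Among levels in p57WT, p57WT 5 stood far above the other 4 libraries for Col1a2, at 2198 CPM against 473 to 873 CPM, for Col5a1, at 1049 CPM against 431 to 596 CPM, and for Cdkn1c, at 458 CPM against 151 to 198 CPM. For Col4a5, p57WT 1 was at 3.41 CPM, below the 10.7 to 13.4 CPM of the others. In p57KO, Col15a1 was at 28.8 CPM in p57KO 5 and 0.296 to 5.32 CPM in the others. Of the ratios, Col1a1 over Col1a2 was 1.05 in p57WT 5 against 1.33 to 1.42 in the other p57WT libraries, and Col3a1 over Col1a1 was 2.44 in p57WT 2 against 1.39 to 1.61. The causes were not tested.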

How the results depend on the processing

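The 19 collagen genes called lower in p57KO kept a negative log2 fold change under every alternative run. Label number as a term is no separate alternative. It compares the genotypes only within number 607, so its values are those of the 607 contrast above, with 1 p57WT library. The number of collagen genes called lower was 19 with RLE scaling and with no expression filter, 20 with limma voom and with DESeq2, 14 with label number as a term and 18 to 20 on leaving out 1 library. Scaling to epithelial markers moved the median of all genes to -1.27 and gave 26, against 59.9% of all genes; the collagen median was then -3.64.

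With epithelial scaling 10445 genes of the whole table passed (10016 lower, 429 higher), 1009 with the label term (826 lower, 183 higher) and 2959 with a ribosomal RNA term (1752 lower, 1207 higher), against 6107 in all. Epithelial scaling gave 7 basement membrane genes and 17 modification genes lower, and 0 modification genes and 0 receptors higher. The label term gave 2 other collagen genes, 4 modification genes, 1 propeptide gene, 2 receptors and 2 proteoglycans lower, and 0 modification genes and 0 receptors higher. The ribosomal RNA term gave 3 other collagen genes, 4 propeptide genes and 2 proteoglycans lower, and 0 modification genes and 0 receptors higher. Without both p57KO 1 and p57KO 2, 0 receptors were higher, and with limma voom 1 modification gene was. On leaving out 1 library, 1 to 2 modification genes and 0 to 2 receptors were higher. The causes were not tested.

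Signs turned in genes that had not passed, or under epithelial scaling. With the ribosomal RNA term Col11a2 was at 0.41, Col4a3 at 0.12, Col4a4 at 0.20, Col18a1 at 0.60, Col6a4 at 0.94 and Col7a1 at 0.38. With the label term Col4a3 was at 0.33 and Col17a1 at -0.53. With epithelial scaling Col17a1 was at -0.50, Col25a1 at -0.49, P4hb at -0.10, Ppib at -0.57 and Itga2 at -0.45. On leaving out 1 library Col4a3 ranged from -0.82 to 0.15 and Col4a4 from -0.68 to 0.080, and the log2 differences of the ratios from -0.10 to 0.017 for Col4a1/Col4a2, -0.66 to 0.34 for Col4a3/Col4a4, -0.31 to 0.99 for Col4a5/Col4a6, -0.048 to 0.46 for Col6a1/Col6a2 and -0.35 to 0.025 for Col5a1/Col5a2.

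Replicate numbers did not pair the libraries: correlations of same-numbered libraries ran from -0.13 to 0.20, and 1 of 5 correlated best with its own number. A replicate block gave 5804 genes in all, 20 collagen genes lower, with Col11a1 added, and 1 modification gene higher. At this depth 3 of the 12 tested collagen genes below 10 CPM were called lower, against 17.2% of all genes tested at any level. The other 9 had 95% limits reaching from -2.90 to 2.08. With label number, ribosomal RNA content and smooth muscle markers all moving with genotype, their shares in the collagen difference cannot be told apart.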

Other observations

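Several collagen genes best known from cartilage had reads in these intestinal libraries. Col9a1 and Col9a2 were lower in p57KO, while Col9a3, which was not tested, averaged 0.585 ± 0.671 CPM in p57KO libraries and 0.457 ± 0.469 CPM in p57WT libraries (SD, n = 5 each). Hapln1, the cartilage link protein, went the other way, at 3.44, 1.06, 42.5, 46.8 and 28.9 CPM in p57KO 1 to 5, against 2.62, 1.30, 4.11, 2.09 and 3.56 CPM in p57WT 1 to 5. It was higher in the 3 p57KO libraries of label number 608 only, with a log2 fold change of 3.18 over all libraries (edgeR adjusted p = 0.00995). Comp, also of cartilage, was at no more than 1.82 CPM in any library, and the other 6 cartilage markers listed had no row and were not analysed here.

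Across the 28 tested collagen genes the log2 fold change was lower where the mean level was higher (Spearman's rho -0.76, across genes measured in the same 10 libraries). The mean level and the fold change are drawn from the same values of both genotypes, so this rho is no independent evidence. Long genes were lower in p57KO over the whole table, with a rho of -0.25 between exonic length and log2 fold change over 16700 genes, and the tested collagen genes are long, with a median of 7.90 kb of exon against 3.84 kb for all. Among the 28 collagen genes themselves rho was 0.09. Genes are not independent replicates, and the part of length in the collagen difference was not tested.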
